A study of Mus musculus with 9 samples.

Results

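The genes described here encode the adaptors, kinases and ubiquitin-linked scaffolds that carry a Toll-like receptor (TLR) signal away from the receptor. They were taken by symbol from the deposited count table: the adaptors Myd88, Tirap, Ticam1 and Ticam2, the IRAK family members Irak2, Irak3 and Irak4, and the TRAF proteins Traf1, Traf3 and Traf6, 10 of the 24061 symbols listed. All counts came from bone marrow-derived macrophages (BMDMs), which are primary macrophages grown from mouse bone marrow in L-cell conditioned medium. The donors were wild-type C57BL/6J female mice aged 8 to 10 weeks, and the fully differentiated cells were kept without serum for 1 day before treatment. RNA was sequenced in 3 groups of 3 libraries. Veh cells received DMSO alone. LPS cells received DMSO and then 10 ng/mL of the TLR4 ligand LPS for 2 hr. T0+LPS cells received 500 nM of T0901317 (T0), an agonist of the liver X receptors (LXRs), from 3 hr before the same LPS stimulus and throughout it. For BMDM experiments the methods give independently differentiated cultures per condition but not the number of mice they came from, and the harvest time of the Veh cells is not stated, so a difference from Veh and a difference in culture time cannot be told apart. P-values therefore measure the spread between these cultures, not between mice.

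As background, TLR4 uses a pair of adaptor arms. At the plasma membrane, TIRAP (also called Mal) bridges the receptor to MyD88, which assembles IRAK4 and IRAK2 or IRAK1 into a complex that engages the ubiquitin ligase TRAF6 and, through it, the kinases that activate NF-kB and the MAP kinases. From endosomes, the bridging adaptor TRAM (Ticam2) recruits TRIF (Ticam1), and TRAF3 then links TRIF to the kinases that drive type I interferon. IRAK-M (Irak3) is best known in macrophages as a brake on the MyD88 arm, and TRAF1, which lacks the RING domain of its relatives, is an NF-kB target gene.

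Total counts per library lay between 13299044 and 16467983. Levels are given as CPM, counts relative to library size after scaling with the TMM factors of edgeR, which correct for library composition. These factors were 1.136 to 1.144 in Veh and 0.931 to 0.948 in the other 6 libraries, so the scaling weighs on comparisons with Veh and hardly on T0+LPS against LPS. Summed macrophage markers (Csf1r, Emr1, Cd68, Fcgr1, Lyz2, Mertk and Itgam, the last listed at 0) gave 25944 to 33244 CPM per library. Lyz2 made up most of this sum, with group means from 19749 CPM in Veh to 23736 CPM in T0+LPS. Mean levels of Fcgr1 (127 CPM in Veh and 70.8 CPM in LPS) and Mertk (61.0 and 34.8 CPM) were lower with LPS, while those of Csf1r and Emr1 were higher. Summed markers of dendritic cells, neutrophils, B cells, T cells and fibroblasts each stayed at or below 3.20 CPM in every library. Dendritic cell markers went from at most 0.661 CPM in Veh to at least 1.94 CPM in the stimulated groups. Most of this rise was Xcr1, with means of 0.248 CPM in Veh, 1.79 CPM in LPS and 2.13 CPM in T0+LPS. Neutrophil markers (S100a9 listed at 0) went from at most 1.33 to at least 1.81 CPM. Here S100a8 made up most of the sum, with means of 0.987 CPM in Veh, 2.28 CPM in LPS and 1.62 CPM in T0+LPS. Group means of Mpo, Elane and Camp were each at most 0.176 CPM. The part of dendritic cell and neutrophil markers in the results was not tested. Itgam, S100a9 and the fibroblast marker Pdgfrb were each counted on 3 bases, so their 0 is not a measurement. The neutrophil marker Ly6g was not listed. Both treatments registered. The sum of Tnf, Il6 and Cxcl1 was at most 1.32 CPM in Veh, 926 to 954 CPM in LPS and 771 to 815 CPM in T0+LPS. In the stimulated groups most of this sum was Cxcl1, with means of 906 CPM in LPS and 762 CPM in T0+LPS. Tnf was counted on 48 bases alone. The sum of the LXR targets Abca1, Abcg1 and Srebf1 was 2205 to 2530 CPM in LPS and 6978 to 7277 CPM in T0+LPS.

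How well the count table can see each gene varied within the group. A gene with several RefSeq transcripts has several rows, and bases shared between rows hold no counted reads. Myd88, Ticam1, Ticam2, Irak3, Irak4, Traf1 and Traf6 each have 1 row and were counted over their whole transcript. Tirap has 4 rows that leave 127 unshared bases of 4868, all in the untranslated exon 1 of 7 (mm10 chr9:35200165-35200291), and it was listed at 0 in all 9 libraries, so the table gives no measurement of Tirap. Irak2 and Traf3 have 2 rows each and were counted on alternative exons alone. For Irak2 this is the coding exon 3 of 13 (mm10 chr6:113665703-113665846, plus strand), 144 bases or 4.50% of the gene's exonic sequence. For Traf3 it is the untranslated exon 2 (mm10 chr12:111219811-111219921) and the coding exon 8 (mm10 chr12:111251130-111251204, plus strand) of 12, 186 bases or 2.60% together. A change in these 2 genes and a change in the use of these exons cannot be told apart. The coding exons are printed because the measured values of both genes rest on such short sequence (Irak2 on the first alone, Traf3 on the second and on its untranslated exon 2). Both were read from GENCODE transcripts of the same build and are in lower case throughout.
Irak2 exon 3: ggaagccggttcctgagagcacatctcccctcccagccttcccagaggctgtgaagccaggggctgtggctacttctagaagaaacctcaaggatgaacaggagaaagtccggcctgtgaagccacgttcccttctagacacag
Traf3 exon 8: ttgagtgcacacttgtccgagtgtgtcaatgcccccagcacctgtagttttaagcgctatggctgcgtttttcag

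After 2 hr of LPS, 8 of the 9 measured genes were higher than in Veh and 1, Irak4, was lower (adjusted p below 0.05 in the quasi-likelihood test of edgeR, Benjamini-Hochberg over all 9559 symbols tested); with library totals as the only scaling, Ticam1 was no longer among the higher genes. Over all symbols tested, 32.9% were higher and 31.2% were lower. In all 9 genes the LPS libraries did not overlap the Veh libraries, which held for 67.3% of all symbols. A rise of at least 2-fold was less common, at 8.11% of all symbols, and 6 of the 9 genes showed one: Traf1, Irak2, Traf3, Irak3, Ticam2 and Myd88. The median log2 fold change was 1.36 over the 9 genes and -0.00187 over all symbols. In bulk RNA, more cells expressing a gene and more RNA per cell cannot be told apart.

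Among the adaptors, Myd88 and Ticam2 rose by similar amounts and Ticam1 moved little. Myd88 (mm10 chr9:119335988-119340040, minus strand), the adaptor of nearly all TLRs and of the IL-1 receptors, stood at 106, 105 and 106 CPM in Veh, 249.7, 278 and 255 CPM in LPS, and 267, 259.5 and 251 CPM in T0+LPS. All 6 stimulated libraries lay above the 3 Veh libraries, and the LPS and T0+LPS libraries overlapped. The change with LPS was 2.47-fold, or 1.31 ± 0.05 on the log2 scale (± standard error here and for each log2 fold change that follows; adjusted p = 5.0e-13, edgeR).

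Ticam2 (mm10 chr18:46558231-46574533, minus strand), which bridges TLR4 to TRIF, stood at 72.8, 80.9 and 79.0 CPM in Veh, 195, 197 and 205 CPM in LPS, and 185, 199.8 and 199 CPM in T0+LPS. Its rise with LPS was 2.57-fold, or 1.36 ± 0.05 on the log2 scale (adjusted p = 4.5e-13, edgeR), again with no overlap between Veh and either stimulated group. Ticam1 (mm10 chr17:56269462-56276767, minus strand), which encodes TRIF itself, stood at 50.25, 45.1 and 47.4 CPM in Veh, 55.5, 59.9 and 58.0 CPM in LPS, and 63.0, 60.1 and 61.5 CPM in T0+LPS. The 3 groups formed 3 steps without overlap, but the steps were small. The log2 fold change with LPS was 0.28 ± 0.06 (adjusted p = 0.00045, edgeR), and it was -0.00123 (adjusted p = 0.99, edgeR) when library totals were the only scaling, which also moved the median of all symbols to -0.284.

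The IRAK family genes moved in opposite directions. Irak3 (mm10 chr10:120141654-120201537, minus strand), the inhibitory member, rose from 41.9, 40.3 and 41.6 CPM in Veh to 109.5, 116 and 135 CPM in LPS, and stood at 136, 144 and 129 CPM in T0+LPS. That is 2.92-fold with LPS, or 1.54 ± 0.07 on the log2 scale (adjusted p = 6.2e-12, edgeR). LPS replicate 3 was the highest of its group and fell within the T0+LPS range, while the other 2 LPS libraries lay below all T0+LPS libraries.

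Irak2 (mm10 chr6:113638467-113695027, plus strand), a kinase-like member that acts late in the MyD88 complex, was read on its exon 3 at 2.62, 2.38 and 2.03 CPM in Veh, 15.0, 11.9 and 13.8 CPM in LPS, and 11.7, 13.9 and 13.3 CPM in T0+LPS. These levels rest on 35 to 49 reads in a Veh library and on 154 to 199 reads in a stimulated one. The exon 3 signal was 5.76-fold higher with LPS, or 2.53 ± 0.15 on the log2 scale (adjusted p = 2.1e-10, edgeR), and all stimulated libraries lay above Veh.

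Irak4 (mm10 chr15:94543660-94568316, plus strand), the kinase that starts IRAK signalling, was the only one of the 9 genes to be lower. It stood at 67.2, 76.2 and 69.6 CPM in Veh, 58.5, 59.3 and 62.2 CPM in LPS, and 61.0, 62.2 and 60.7 CPM in T0+LPS. No stimulated library reached the Veh range. With LPS it fell by 15.2%, which is -0.24 ± 0.06 on the log2 scale (adjusted p = 0.0016, edgeR), and it became -0.52 with library totals as the only scaling.

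Traf1 gave the largest change of the 9 genes. Traf1 (mm10 chr2:34943258-34961772, minus strand) stood at 10.8, 11.3 and 11.9 CPM in Veh, 188, 215 and 209 CPM in LPS, and 182, 197 and 196 CPM in T0+LPS. With LPS it was 18.03-fold higher, or 4.17 ± 0.07 on the log2 scale (adjusted p = 1.5e-17, edgeR), and ranked 121 from the top of the 9559 symbols tested. No stimulated library came near the Veh range, and the LPS and T0+LPS libraries overlapped.

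Traf6 (mm10 chr2:101678440-101700974, plus strand), the ubiquitin ligase below IRAK, rose less. It stood at 57.5, 59.7 and 58.3 CPM in Veh, 86.1, 84.1 and 90.03 CPM in LPS, and 83.7, 86.6 and 88.5 CPM in T0+LPS. The change with LPS was 1.49-fold (log2 fold change 0.57 ± 0.05, adjusted p = 3.6e-08, edgeR), with no overlap with Veh. Over 9 alternative fits with no library left out, its log2 fold change went as low as 0.289, and it was called in all 9. Traf3 (mm10 chr12:111166370-111267155, plus strand), the TRIF arm scaffold, had only 10, 13 and 14 reads on its 2 countable exons in Veh, 40, 33 and 47 reads in LPS, and 29, 44 and 31 reads in T0+LPS. On the CPM scale the mean was 0.735 ± 0.175 in Veh, 3.07 ± 0.620 in LPS and 2.47 ± 0.512 in T0+LPS (SD, n = 3 in each). Its log2 fold change with LPS was 2.07 ± 0.27 (adjusted p = 4.3e-06, edgeR), with a 95% interval from 2.83-fold to 6.20-fold, the widest of the 9 genes on the log2 scale.

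**Figure D1:**
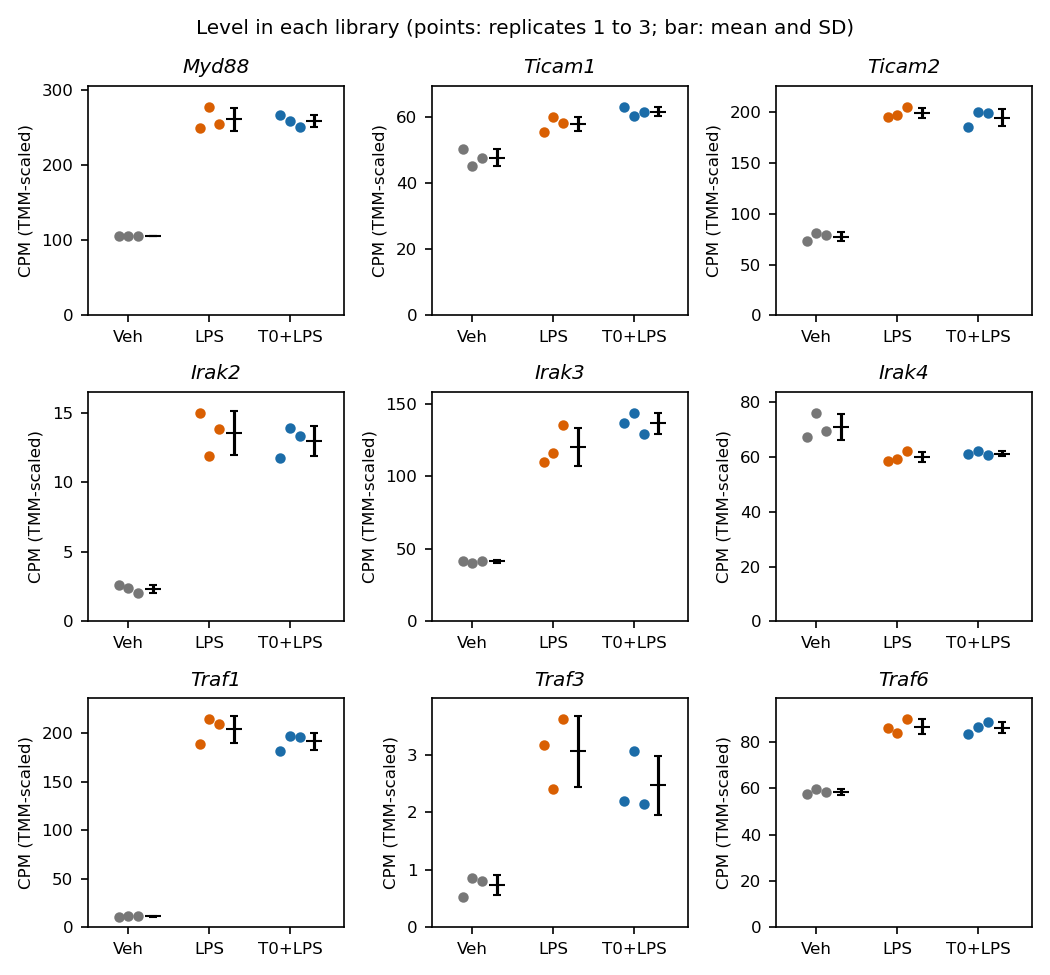
Level of each of the 9 measured genes in TMM-scaled CPM (vertical axes from 0) in the Veh, LPS and T0+LPS libraries; points are replicates 1 to 3 from left to right, and the bar beside them is the mean with its SD. Traf1 goes from a mean of 11.3 CPM in Veh to 204 CPM in LPS and 191 CPM in T0+LPS, while Irak4 is the one gene whose stimulated libraries all lie below Veh and Ticam1 the one whose T0+LPS libraries all lie above LPS, by little.

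Divided by the bases counted, levels can be compared between the 7 genes with 1 row. In Veh the order was Myd88 (mean 55.5 CPM per kb), Irak4 (25.1), Ticam2 (23.8), Ticam1 (16.8), Irak3 (13.9), Traf6 (10.7) and Traf1 (4.88). Irak4 and Ticam2 overlapped between libraries, and the other neighbours did not. In LPS, Myd88 was still highest at 137 CPM per kb, but Traf1 had moved from last to second at 87.8 CPM per kb. Ticam2 (61.0) and Irak3 (40.5) followed, and Irak4 (21.3), Ticam1 (20.4) and Traf6 (15.8) came last, with Irak4 and Ticam1 overlapping. The order in T0+LPS was again Myd88 (136), Traf1 (82.3), Ticam2 (59.6) and Irak3 (45.9), and then Ticam1 (21.7) and Irak4 (21.7), which overlapped, and Traf6 (15.8).

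The comparison of T0+LPS with LPS asked whether LXR activation before the stimulus alters these signalling genes. None of the 9 was called, against 3.18% of the 9348 symbols tested (adjusted p below 0.05, edgeR); limma-voom and DESeq2 also called 0 of 9. At an unadjusted p under 0.05, 1 gene passed, Irak3, where 13.9% of all symbols did. Irak3 had a log2 fold change of 0.18 ± 0.07 (adjusted p = 0.23, edgeR), with a 95% interval from 1.02-fold to 1.26-fold. Its call depended on a setting: it was called higher when LPS replicate 3 was left out (0.28, adjusted p = 0.0098, edgeR) and when low-count symbols were kept in the test (0.19, adjusted p = 0.036, edgeR). Over the remaining 13 of its 15 alternative fits it was not called.

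For 7 of the 9 genes the 95% interval of the fold change lay inside 1.25-fold either way, where 56.7% of all symbols had such an interval; Irak3 and Traf3 were the exceptions. The median size of the log2 fold change was 0.0592 over the 9 genes and 0.0847 over all symbols. The interval was, for Myd88, from -7.87% to 7.09%, for Traf6, from -7.91% to 7.44%, for Ticam2, from -9.05% to 5.06%, and for Irak4, from -5.81% to 10.9%. Traf1 had a log2 fold change of -0.09, with an interval from -13.6% to 1.95%. Irak2 had -0.06, with an interval from -18.6% to 13.2%, and Traf3 had -0.30, with an interval from -41.96% to 13.5%, which leaves the size of any change in the Traf3 exons poorly determined. Ticam1 was the only gene whose T0+LPS libraries all lay above its LPS libraries (19.1% of all symbols lay apart in either direction), by 0.09 ± 0.06 on the log2 scale (adjusted p = 0.55, edgeR).

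**Figure D2:**
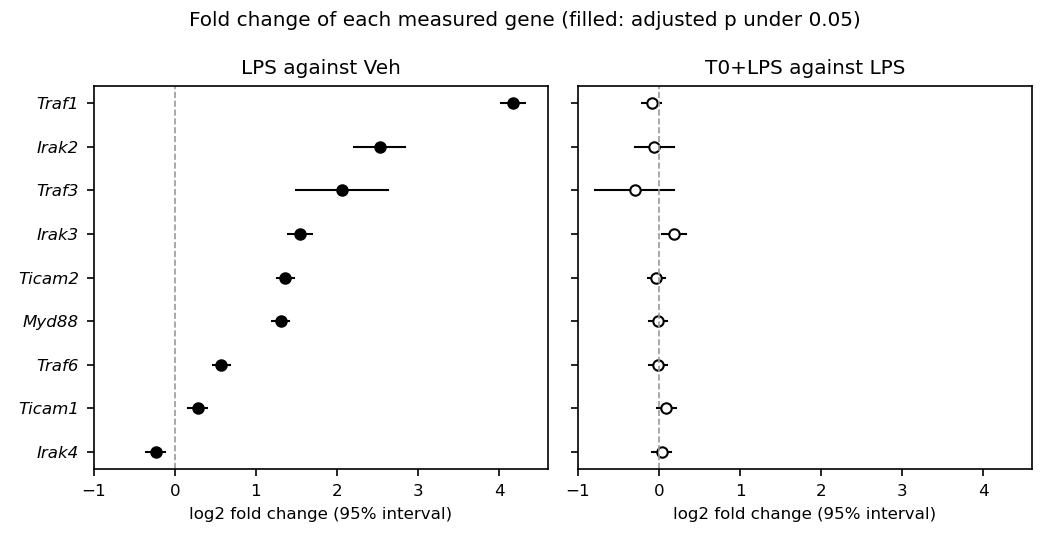
Log2 fold change of each measured gene in LPS against Veh (left) and in T0+LPS against LPS (right), on the same horizontal scale; lines are 95% intervals, and a filled circle marks an adjusted p under 0.05 from edgeR. On the left all 9 are filled, from -0.24 for Irak4 to 4.17 for Traf1 (Ticam1, at 0.28, is near 0 and not called when library totals are the only scaling); on the right all 9 are open and lie between -0.30 and 0.18.

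Set against Veh, the T0+LPS libraries gave values close to those of LPS alone, and since both comparisons use the same Veh libraries they are listed side by side without a test between them. The log2 fold changes in T0+LPS against Veh and, in brackets, LPS against Veh were 4.06 (4.17) for Traf1, 2.44 (2.53) for Irak2 and 1.70 (1.54) for Irak3. They were 1.74 (2.07) for Traf3, 1.31 (1.36) for Ticam2, 1.27 (1.31) for Myd88 and 0.54 (0.57) for Traf6. Ticam1 had 0.35 (0.28) and Irak4 -0.23 (-0.24). In edgeR, 8 genes were higher and 1 was lower in T0+LPS than in Veh (adjusted p below 0.05; 32.4% of all symbols were higher and 32.9% lower), and Ticam1 again lost its call when library totals were the only scaling (0.08, adjusted p = 0.16, edgeR).

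Ratios of 2 genes within a library do not depend on the scaling between libraries. The 4 pairs below were chosen after the values had been seen, and reads per kb were used. Ticam2 over Ticam1, the bridging adaptor relative to its partner, was 1.26, 1.55 and 1.44 in Veh, 3.05, 2.85 and 3.07 in LPS, and 2.55, 2.88 and 2.80 in T0+LPS. Myd88 over Ticam1, the adaptors of the 2 arms, was 3.13, 3.47 and 3.32 in Veh, 6.69, 6.89 and 6.54 in LPS, and 6.29, 6.42 and 6.07 in T0+LPS. With LPS the first ratio was 2.11 times and the second 2.03 times its Veh value, without overlap.

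Irak3 over Irak4, the inhibitory member relative to the initiating kinase, was 0.593, 0.504 and 0.569 in Veh, 1.78, 1.86 and 2.06 in LPS, and 2.12, 2.20 and 2.02 in T0+LPS. Irak3 was thus below Irak4 per kb in every Veh library and above it in every stimulated library. Traf1 over Traf6 was 0.442, 0.446 and 0.482 in Veh, 5.15, 6.01 and 5.47 in LPS, and 5.11, 5.36 and 5.21 in T0+LPS. For all 4 ratios every stimulated library lay above every Veh library, which follows from pairing a gene that rose more with one that rose less or fell, so the ratios are given as a description, with no test.

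**Figure D3:**
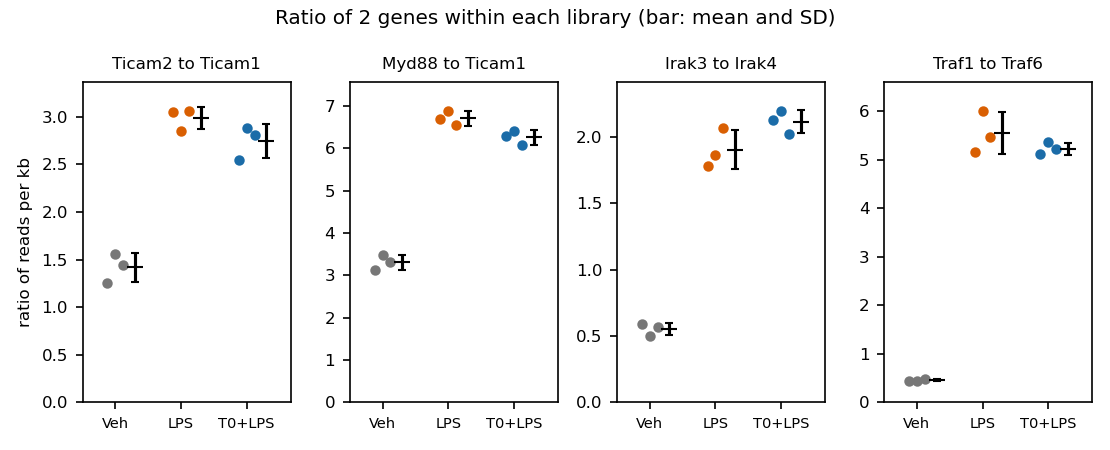
Ratio of reads per kb between 2 genes of the same library (vertical axes from 0, no unit) in the Veh, LPS and T0+LPS libraries; points are replicates 1 to 3 from left to right, and bars are the mean and SD. Irak3 over Irak4 goes from a mean of 0.555 in Veh to 1.90 in LPS and 2.11 in T0+LPS, and Traf1 over Traf6 from 0.457 to 5.54 and 5.23.

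The other genes of the pathway were read from 5 lists of 40 symbols. In LPS against Veh 29 could be tested, of which 18 were higher and 6 lower, beside 32.9% higher and 31.2% lower over all symbols, with a median log2 fold change of 0.37. With library totals as the only scaling, these counts became 13 and 10, and those over all symbols went from 3148 and 2981 to 1694 and 5411. Of the 11 that could not be tested, 10, among them Irak1, Traf2, Map3k7 (TAK1), Chuk and Ikbkg, have several rows with at most 158 unshared bases. The remaining IRAK and TRAF family therefore came down to Traf4 and Traf5. Traf4 had -0.84 and no call, on 13, 15 and 19 reads in Veh and 3, 11 and 6 reads in LPS. Its 95% interval ran from 0.309-fold to 1.005-fold. Traf5 was higher with 0.51.

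Of the 10 ubiquitin enzymes, all of which could be tested, 7 were higher and 1 lower, beside 32.9% higher and 31.2% lower over all symbols. Peli1, a ubiquitin ligase that binds IRAK proteins, went from 55.2 ± 3.41 to 455 ± 2.21 CPM (SD, n = 3), or 3.05 on the log2 scale. Birc3 and Birc2, the cIAP ligases that bind TRAF proteins, had log2 fold changes of 2.70 and 1.39. Of the 5 TAK1 and IKK kinase genes tested, 4 were higher and 1 lower, beside the same shares of all symbols. The TAK1-binding subunits moved apart, with Tab2 at 1.32 and Tab1 at -1.44 from 33.2 ± 2.34 to 12.2 ± 0.822 CPM (SD, n = 3). Map3k8, the kinase that feeds the ERK pathway, had 1.21.

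In the TRIF arm, 3 of 7 were higher and 2 lower, beside 32.9% higher and 31.2% lower over all symbols. Ikbke, an interferon-inducing kinase, had a log2 fold change of 1.97. Tank, a scaffold of those kinases counted on 313 bases with 28, 29 and 36 reads in Veh, had 2.43. For Tank, a change in the gene and a change in the use of these bases cannot be told apart. Of the 5 inhibitors tested, 3 were higher and 2 lower, beside the same shares of all symbols. These inhibitors held the extremes of all 5 lists. Tnfaip3, which encodes the deubiquitinase A20, had 5.79, counted on 431 bases with 9, 9 and 5 reads in Veh. A change in Tnfaip3 and a change in the use of these bases cannot be told apart. Tnfaip8l2, an inhibitor also called TIPE2, had -1.63 from 180 ± 3.83 to 58.0 ± 2.95 CPM (SD, n = 3). Each of these named genes had an adjusted p of at most 2.7e-09 (edgeR) except the 2 TRAF genes, and none changed direction with the scaling.

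With T0, 1 of the 28 pathway genes that could be tested was called, a share near the 3.18% of all symbols called in this comparison. Traf5, a TRAF family member that acts below receptors of the TNF family, stood at 39.0, 35.2 and 30.4 CPM in LPS and at 27.1, 25.1 and 25.6 CPM in T0+LPS, without overlap, and at 24.0 to 25.1 CPM in Veh. Its log2 fold change against LPS was -0.43 ± 0.09 (adjusted p = 0.012, edgeR). The call was lost without LPS replicate 1 (-0.34, adjusted p = 0.087), without T0+LPS replicate 2 (-0.40, adjusted p = 0.072) or without T0+LPS replicate 3 (-0.42, adjusted p = 0.051, all edgeR). The next gene down, Tnfaip3, read on the same 431 bases, had -0.34 (adjusted p = 0.07, edgeR). It was called only with the replicate number as a block (-0.35, adjusted p = 0.03, edgeR) or with low-count symbols kept (-0.34, adjusted p = 0.0078, edgeR).

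**Figure D4:**
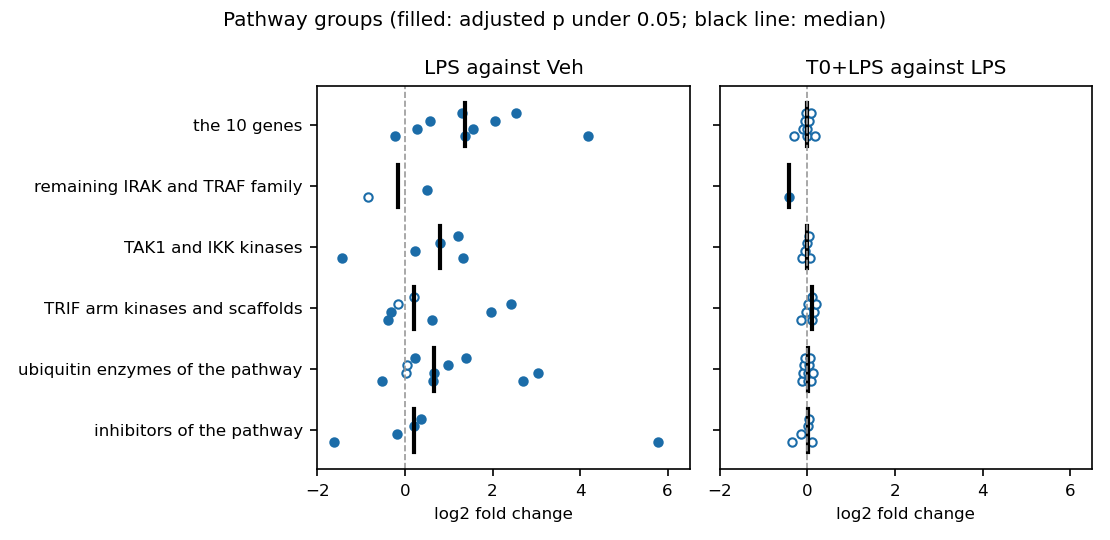
Log2 fold change of each tested gene in LPS against Veh (left) and in T0+LPS against LPS (right) for the adaptor, IRAK and TRAF genes (top line, 9 measured of 10) and for 5 lists of other pathway genes; filled circles have an adjusted p under 0.05 from edgeR, small vertical offsets only separate points, and black lines are medians. LPS spreads the genes from -1.63 (Tnfaip8l2) to 5.79 (Tnfaip3, counted on 431 bases). With T0 all points lie between -0.43 and 0.19 and 1, Traf5, is filled.

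For each of the 6 genes that rose at least 2-fold, the 3 symbols with the most similar pattern over the 9 libraries were found by Euclidean distance between centred log2 CPM values among symbols with a mean of at least 5 CPM. Myd88 lay nearest Ppp1r15a (distance 0.122), Klf6 and 3110043O21Rik, and Ticam2 nearest Nampt (0.157), Slamf7 and Srfbp1. Irak3 lay nearest Slc31a1 (0.262), Dse and Ifngr1, and Traf1 nearest Lcp2 (0.211), Ripk2 and Ccl3. The exon-based values of Irak2 lay nearest Msr1 (0.316), Akna and Micall2, and those of Traf3 nearest Slfn8 (0.557), Parp14 and Snn. Distances grew as read numbers fell, with Traf3 at the far end, and since the 9 libraries form only 3 groups any gene with a like response to LPS comes close.

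Promoters were read for the genes in the RefSeq table (GRCm38.p6, the mm10 build), 250 bases before to 50 after each start. It held 11 start sites of 9 of the 10 genes. Ticam2 had none and was not searched. They were searched on both strands for the NF-kB consensus, AP-1 (TGANTCA), the core of the interferon-stimulated response element (ISRE, GAAANNGAA), a nuclear receptor half-site (AGGTCA) and the paired half-site used by LXR (DR4). Every DR4 match also holds the half-site. A promoter with the NF-kB consensus was found for 1 gene, Traf3 (1 of the 11 promoters, and 8.46% of all 32851 promoters). The ISRE core was found for Myd88 and for the upstream start of Irak3 (2 of the 11 promoters, 8.56% of all). A half-site was found for Irak2, Irak3 and Irak4 (3 of the 11 promoters, 16.3% of all). In Irak3 the half-site, with no ISRE core, lies at the other start, nearer the 5′ end of the counted row (chr10:120201537). Neither AP-1 (7.81% of all) nor DR4 (0.0152% of all) was found for any of these 9 genes.

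The 120 bases before the start are printed for 4 of the genes that rose at least 2-fold, with every match in capitals: Traf1, which rose most and has no match, Myd88 and Irak3 with the ISRE core, and Traf3 with the NF-kB consensus. They are Traf1 at chr2:34961773-34961892 (minus strand), Myd88 at chr9:119340019-119340138 (minus strand), Irak3 at chr10:120202131-120202250 (minus strand, upstream start) and Traf3 at chr12:111166250-111166369 (plus strand), each read 5′ to 3′ on the strand of its gene.
Traf1: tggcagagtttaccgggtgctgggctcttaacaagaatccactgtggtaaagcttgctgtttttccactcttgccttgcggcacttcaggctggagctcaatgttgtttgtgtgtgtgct
Myd88: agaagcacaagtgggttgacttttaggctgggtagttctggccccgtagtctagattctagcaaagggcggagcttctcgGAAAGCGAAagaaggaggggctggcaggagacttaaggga
Irak3: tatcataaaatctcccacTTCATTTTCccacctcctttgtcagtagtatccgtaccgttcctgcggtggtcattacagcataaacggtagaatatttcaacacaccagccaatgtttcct
Traf3: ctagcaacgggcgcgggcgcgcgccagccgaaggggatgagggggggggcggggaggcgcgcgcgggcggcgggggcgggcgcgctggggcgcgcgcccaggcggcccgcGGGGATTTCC
In Myd88 the match lies 40 to 32 bases before the start, in Irak3 102 to 94 bases before it on the opposite strand, and in Traf3 the final 10 bases before it. These are matches of letters, and binding to them was not measured here.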

How the data were processed

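RNA was measured in 9 BMDM libraries by polyadenylated RNA-seq. The authors used cutadapt for adaptor removal, HISAT2 for alignment (mm10 transcriptome) and featureCounts for counting on RefSeq genes, and the deposited counts are whole reads per row, not normalized. The other 2 deposited files hold the authors' own comparisons and were not used.

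Rows of one symbol were summed before testing. Each comparison used 6 libraries in edgeR 4.0.16 (R 4.3.3) with TMM factors, filterByExpr, the quasi-likelihood test and Benjamini-Hochberg adjustment at 0.05. Standard errors are fitted values on the log2 scale. CPM levels used TMM factors over all 9 libraries. Alternatives were DESeq2 1.42.0, limma 3.58.1 (voom), DESeq2's size factors, library totals alone, no filter, at least 10 counts in 3 libraries, a fit to all 9 libraries, single rows, the replicate number as a block and each library left out. Scripts were tested on simulated data. Depth was 13299044 to 16467983 counts per library, and a count of 0 leaves room for an expected count of up to 3 reads. Every replicate pair differed beyond sampling noise (chi-square over degrees of freedom at least 2.89).

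Genes named are the 10 members, every gene of the 5 other pathway lists called in T0+LPS against LPS, those called in LPS against Veh with a log2 fold change of at least 1 in size, and the 3 nearest patterns. Traf4 and the uncalled Tnfaip3 value in T0+LPS against LPS were added after their values were seen. The members and lists were chosen with earlier results of these data known.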

Additional observations from a re-analysis of the deposited data

How the results depend on the processing

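Of 405 log2 fold changes of the 9 genes under alternatives, 394 kept their direction and their side of the threshold, 2 gained a call (both Irak3), 1 lost its call in the same direction (Ticam1 in T0+LPS against Veh), and 8 changed sign, of which 1 also lost its call (Ticam1 in LPS against Veh). Library totals as the only scaling moved the calls of LPS against Veh from 3148 higher and 2981 lower to 1694 and 5411, and those of T0+LPS against Veh from 3121 and 3172 to 1659 and 5523. Lower genes of the other pathway lists went from 6 to 10 and from 6 to 11, Ticam1 to -0.00123 against Veh in LPS, and Traf5 from 0.06 to -0.20 in T0+LPS against Veh. A minimum of 1.5-fold left 0 lower genes among the 9 in both comparisons with Veh, since Irak4 changed by less.

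In T0+LPS against LPS, testing every symbol with a count gave 225 higher and 285 lower in place of 126 and 171, with 1 of the 9 genes (Irak3) higher and 2 other pathway genes lower in place of 1. With 1 library left out, the calls ranged from 59 to 167 higher and from 82 to 191 lower, both lowest without LPS replicate 1. Without T0+LPS replicate 1 there were 103 lower, and without T0+LPS replicate 2 there were 78 higher and 94 lower. The 9 genes then gave 0 to 1 higher (Irak3, without LPS replicate 3), and the other pathway genes 0 to 1 higher and 0 to 1 lower. The log2 fold changes ranged from -0.0411 to 0.0367 for Myd88, -0.0503 to 0.0038 for Ticam2, -0.15 to 0.0169 for Irak2, -0.0309 to 0.0223 for Traf6 and -0.0475 to 0.104 for Tab1, so these 5 have no stable direction; the cause of these shifts was not tested.

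The replicate numbers are in the labels of all 3 groups, but nothing there says that a number marks a shared culture or day, and same-numbered libraries did not deviate together (correlations of -0.0589 to 0.0777 over 8633 symbols). When edgeR's model held the replicate block, T0+LPS against LPS gave 155 higher and 230 lower symbols and 2 lower pathway genes (Traf5 and Tnfaip3) in place of 1, and no call among the 9 genes changed in any comparison.

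Depth limits Traf3 most, with 10 to 47 reads per library, and Irak2, with 35 to 199. Dividing by the summed length of both rows in place of the counted bases would put Irak2 in LPS at 2.17 in place of 94.1 CPM per kb and Traf3 at 0.217 in place of 16.5, so neither was ranked against the other genes. Tirap was not measured.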
